A study of Mus musculus with 4 samples.

Results

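The genes described here are 37 genes of protein synthesis supply and of the response to amino acid shortage, chosen by symbol from the deposited expression table, which holds 23847 rows in all. They fall into 20 cytosolic aminoacyl-tRNA synthetase genes, 8 genes of the axis around the transcription factor ATF4, and 9 enzyme genes of amino acid synthesis and one-carbon metabolism. All 37 were present in the table, each on a single row, and 36 passed the filter on low values (at least 1 FPKM in at least 2 of the 4 libraries). FPKM is a read count scaled by transcript length and by library size.

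The libraries came from whole back-skin epidermis of mice at postnatal day 20, with 2 WT (Irx5+/+) and 2 Irx5KO (Irx5-/-) libraries, which the design counts as 2 mice per genotype. Irx5 encodes a homeodomain transcription factor, and the comparison asks which epidermal transcripts differ when it is disrupted. Skin of both genotypes was held in 0.25% trypsin for 2 h before the epidermis was taken off and filtered. The labels state neither the knockout allele, strain, sex nor litters, and p-values reflect only how far these 4 samples differ from one another.

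Aminoacyl-tRNA synthetases join each amino acid to its tRNA, and several of them sit together in a multisynthetase complex held by scaffold proteins. When charged tRNA runs short or the endoplasmic reticulum is stressed, kinases phosphorylate the initiation factor eIF2alpha, general translation slows and the ATF4 mRNA is translated more. ATF4, with C/EBP partners, then binds composite elements in genes for synthetases, amino acid enzymes and transporters. These pathways feed keratinocytes, which make large amounts of keratin and cornified envelope protein.

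Irx5 itself was lower in the knockout libraries but still present, at 17.4 and 16.4 FPKM in WT, against 10.01 and 10.08 in Irx5KO, replicate 1 first as in every pair below (Irx5 log2 change -0.70, SE 0.162, limma adjusted p = 0.0117). Without either Irx5KO library the Irx5 call was lost (limma adjusted p = 0.107 and 0.0923), and in TPM it was 0.0577. Sex-linked transcripts separated the genotypes too: Xist was at 36.6 and 33.9 FPKM in WT, against 0.0606 and 0.0459 in Irx5KO, and the Y-linked Eif2s3y was at 0.0350 and 0.0422 FPKM in WT, against 70.9 and 75.7 in Irx5KO. Sex and genotype therefore cannot be told apart in any result here, although 0 of the 37 genes lie on the X or Y chromosome. Keratinocyte markers (Krt5, Krt14, Krt1, Krt10, Trp63, Epcam and Cdh1) summed to 13896 to 15546 FPKM in WT and 10935 to 11082 FPKM in Irx5KO. Within that sum the basal keratin gene Krt14 fell to 30.9% of WT (Krt14 -1.69, limma adjusted p = 0.00439) and Trp63 rose to 196% (Trp63 0.95, limma adjusted p = 0.00871). Markers of dermal cells were low, as 6 fibroblast markers summed to at most 4.37 FPKM and 4 endothelial markers to at most 1.21 FPKM. For a transcript 2000 bases long, 1 FPKM equals an estimated 94.0 to 108 reads in these libraries.

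The core of the composite C/EBP-ATF element, TGATGNAA, was searched on both strands of RefSeq promoter windows (GRCm38.p6, 250 bases before to 50 bases after a transcript start), because this is the sequence through which ATF4 acts on such genes. A window was found for 30 of the 37 genes. The core stood in the windows of 10 of these genes, 5 of 13 synthetases, 3 of 8 ATF4 axis genes and 2 of 9 enzymes, against 3.97% of all 32851 windows. Sequences of 10 sites follow, each read on the strand that carries the core, with the core in capitals and 11 bases of flank on either side.
Chac1: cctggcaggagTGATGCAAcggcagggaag
Nupr1: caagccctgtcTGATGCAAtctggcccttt
Trib3: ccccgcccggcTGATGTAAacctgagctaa
Asns: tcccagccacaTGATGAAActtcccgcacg
Pycr1: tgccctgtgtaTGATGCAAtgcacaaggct
Aars: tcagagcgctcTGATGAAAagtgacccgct
Gars: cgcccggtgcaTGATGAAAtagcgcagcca
Iars: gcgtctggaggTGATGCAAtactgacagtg
Tars: agctaaccagcTGATGCAAcgggactcctg
Yars: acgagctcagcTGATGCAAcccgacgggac

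The Chac1 site lies at chr2:119351038-119351067, and its core begins at position -193 from the RefSeq start, on the strand opposite to the gene. The Asns core, in the site at chr6:7693214-7693243, begins at position -23 on the gene's own strand. These are matches of letters in a fixed window, not measured binding sites, and a gene without a match can carry the element elsewhere. The 250 bases before the start of these genes are shown whole, on the strand of the gene, because Chac1 is the matched gene that fell most and Asns is a gene long used to study this element. In the Chac1 promoter (chr2:119350992-119351241, plus strand) the core appears as its reverse complement. The Asns promoter is at chr6:7693210-7693459 on the minus strand.
Chac1: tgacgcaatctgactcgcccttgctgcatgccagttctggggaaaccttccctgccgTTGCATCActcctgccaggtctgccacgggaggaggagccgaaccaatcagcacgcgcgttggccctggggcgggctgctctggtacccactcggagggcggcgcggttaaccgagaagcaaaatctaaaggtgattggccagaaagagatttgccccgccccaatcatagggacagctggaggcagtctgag
Asns: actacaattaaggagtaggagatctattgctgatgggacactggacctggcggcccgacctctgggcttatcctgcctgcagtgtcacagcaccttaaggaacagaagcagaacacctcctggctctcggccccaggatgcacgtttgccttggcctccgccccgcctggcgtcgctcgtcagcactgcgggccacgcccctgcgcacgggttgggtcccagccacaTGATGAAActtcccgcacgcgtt

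Most ATF4 axis genes were lower in the knockout, and 19 of the 20 synthetase genes did not pass the test. Of the 36 tested genes, 3 were higher and 6 lower in Irx5KO and 27 did not pass (limma on log2(FPKM + 1), adjusted p below 0.05 over all rows). That is 25.0% of them, against 36.1% of all 11643 rows tested, of which 26.9% were higher and 9.22% lower. The 6 that fell were Atf4, Cebpb, Chac1, Ddit3, Atf5 and Mthfd2, so 5 of the 6 belong to the ATF4 axis. Chac1 and Mthfd2 were above 1 FPKM only in WT and could enter the test only with a difference, which leaves 4 that fell without that condition. The 3 that rose were Shmt1, Cebpg and Iars. All rows had a median log2 change of 0.26 in the deposited values, and -0.00 when the libraries were scaled by the median of ratios, so the change of each gene that passed among the 37 is also given relative to that median. With 2 libraries per genotype the smallest p of an exact permutation test is 0.33, so every p-value here comes from the limma model.

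**Figure D1:**
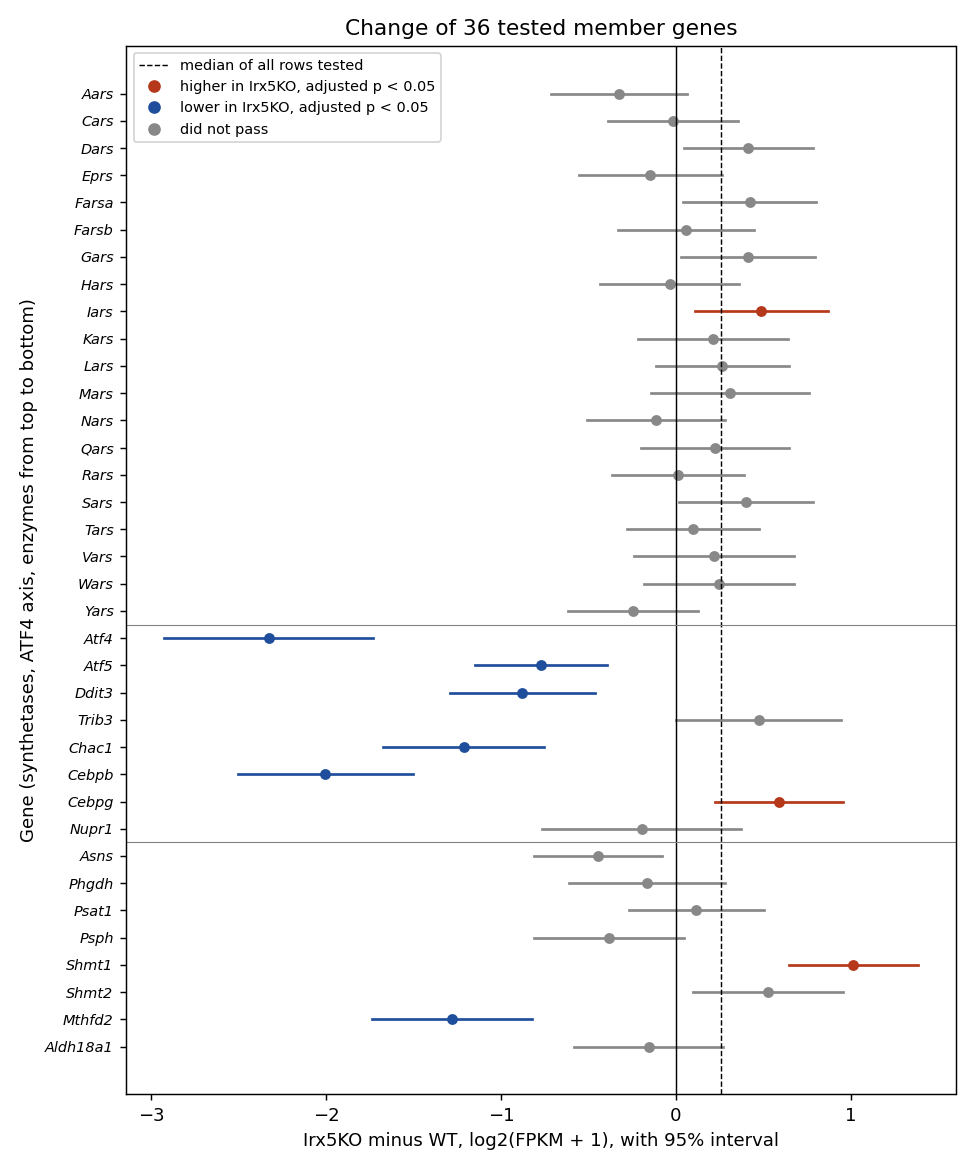
Log2 change (Irx5KO minus WT, on log2(FPKM + 1)) of the 36 tested genes with 95% intervals from limma. Points in blue were lower and in red higher at an adjusted p below 0.05, the dashed line marks the median of all rows at 0.26, and horizontal lines part the synthetases, the ATF4 axis and the enzymes. The 6 genes that fell lie from -2.33 to -0.77, whereas the 20 synthetases lie between -0.32 and 0.49.

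Atf4, which encodes the central transcription factor of the amino acid response, was the most abundant of the 37 transcripts in every library and had the largest fall in the deposited values. Under quantile normalization Cebpb fell slightly more (-1.999 against -1.90 for Atf4). It measured 515 and 669 FPKM in WT, against 93.6 and 144 in Irx5KO. Both knockout libraries were far below both WT libraries, and the Irx5KO mean was 20.1% of the WT mean (Atf4 log2 change -2.33, SE 0.264, limma adjusted p = 4.75e-04, and -2.59 relative to all rows). The gene lies on chromosome 15 at 80255184 to 80257541 (GENCODE M21, mm10). FPKM reads the amount of Atf4 mRNA and not its translation, through which the protein is chiefly controlled.

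Cebpb, a C/EBP factor that partners ATF4 and is also induced by growth factor and inflammatory signals, showed a change of similar size. Its level was 92.7 and 92.6 FPKM in WT, against 17.9 and 27.9 in Irx5KO, so the WT libraries were nearly equal and the knockout libraries were both lower (-2.003, SE 0.221, limma adjusted p = 4.19e-04, and -2.26 relative to all rows). Cebpg, the partner that forms heterodimers with ATF4, moved the other way, from 15.6 and 16.2 FPKM in WT to 24.6 and 24.4 FPKM in Irx5KO (0.59, SE 0.162, limma adjusted p = 0.0223, and 0.33 relative to all rows). The groups did not overlap for Cebpg, but its call was lost under median of ratios scaling (0.30, limma adjusted p = 0.209), under quantile normalization (0.44, limma adjusted p = 0.0718) and without either Irx5KO library (0.193 without replicate 1 and 0.169 without replicate 2, limma adjusted p).

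The stress factors Ddit3 and Atf5 fell by less. Ddit3, also called CHOP and linked to cell death in prolonged stress, was at 40.8 and 36.6 FPKM in WT, against 18.3 and 23.2 in Irx5KO (-0.88, SE 0.184, limma adjusted p = 0.00761, and -1.14 relative to all rows). Atf5, a relative of ATF4 that is under similar translational control, was at 23.9 and 22.9 FPKM in WT, against 12.5 and 14.2 in Irx5KO (-0.77, SE 0.166, limma adjusted p = 0.00864, and -1.03 relative to all rows). For both genes the knockout libraries lay entirely below the WT libraries. Without Irx5KO replicate 1 neither passed (limma adjusted p = 0.104 for Ddit3 and 0.114 for Atf5). Ddit3 overlaps Mars on the opposite strand by 68 bases, Atf5 overlaps Nup62 by 571 bases and Il4i1 by 272 bases, and Cebpb overlaps Tmem189 by 908 bases, and strand-specific counting is not stated. In GENCODE M21 a second gene named Ddit3 overlaps Ddit3 on the same strand by 2925 bases, where reads could be split.

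Downstream genes of the axis split. Chac1, which encodes an enzyme that breaks down glutathione and is a classic ATF4 target, was at 2.32 and 3.78 FPKM in WT, against 0.635 and 0.808 in Irx5KO, or 23.7% of the WT mean (-1.21, SE 0.204, limma adjusted p = 0.00292, and -1.47 relative to all rows). It passed the filter through the WT libraries alone, so its place among the tested rows already required a difference. Trib3, a pseudokinase that is another target and feeds back on ATF4, was at 2.93 and 3.94 FPKM in WT, against 4.26 and 6.12 in Irx5KO. Both knockout libraries were above both WT libraries, yet the change did not pass (Trib3 0.47, 95% interval 0.00 to 0.94, limma adjusted p = 0.103, and 0.0204 in TPM). Nupr1, a small stress-induced chromatin protein, overlapped between the genotypes at 114 and 86.1 FPKM in WT, against 69.1 and 108 in Irx5KO (-0.20, 95% interval -0.76 to 0.37, limma adjusted p = 0.557).

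As a whole, 5 of the 8 ATF4 axis genes fell and 1 rose, against 9.22% and 26.9% of all rows. With Chac1 set aside, 4 of the other 7 fell. The counts that follow cover all 8 genes again, and the lower ones are Atf4, Cebpb and Chac1. Chac1 there too was above 1 FPKM only in WT, so its place among the tested rows already required a difference. Without Irx5KO replicate 1 the counts were 3 and 0, and 6.33% and 11.1% of all rows were then lower and higher. The summed level of the 8 genes was 808 and 931 FPKM in WT, against 241 and 348 in Irx5KO, most of it Atf4. The members were chosen with earlier results known, so these counts describe the group and carry no test.

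**Figure D2:**
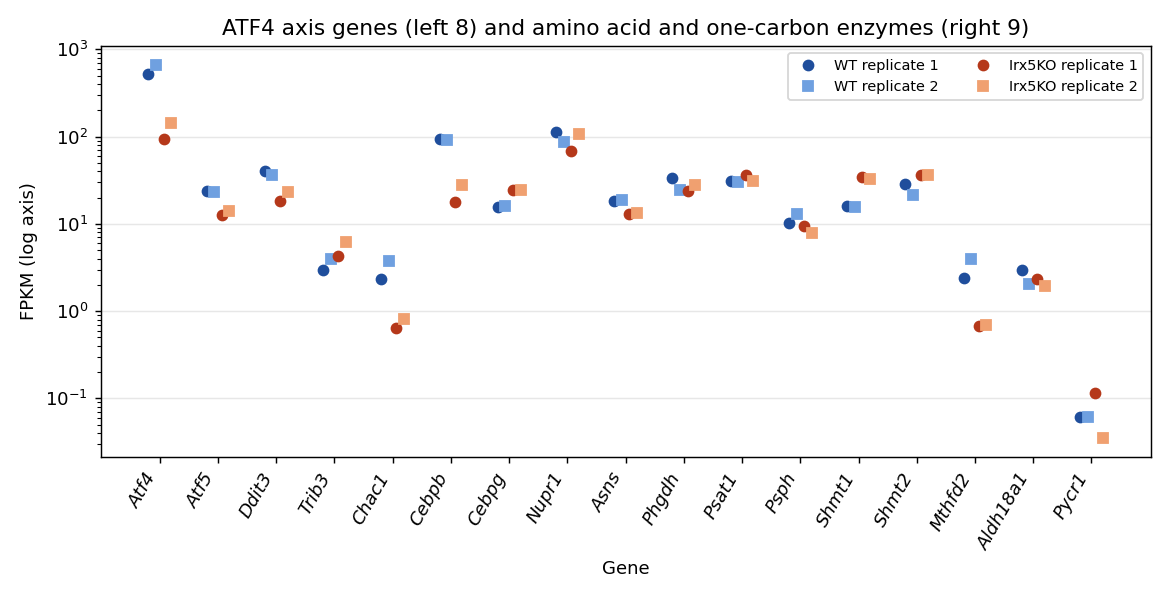
FPKM on a log axis of the 8 ATF4 axis genes and 9 enzyme genes in each of the 4 libraries; circles are replicate 1 and squares replicate 2, WT in blue and Irx5KO in red and orange. Atf4, Atf5, Ddit3, Chac1, Cebpb, Asns, Psph and Mthfd2 have both knockout points below both WT points, as do 18.0% of all rows tested. Trib3, Cebpg, Shmt1 and Shmt2 have them above, as do 54.3% of all rows tested. Pycr1 is near the floor at 0.0350 to 0.115 FPKM.

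The fall of these mRNAs moved together with other transcripts that bear on how the samples were handled and composed. All 15 genes on a list of immediate-early genes were lower in both Irx5KO libraries than in both WT libraries, against 18.0% of all rows tested. Such genes (Fos, Jun, Egr1 and others) are induced within minutes of tissue handling. Of the 15, 13 passed the test as lower, against 9.22% of all rows. Fos (limma adjusted p = 0.0891) and Jun (0.0627) did not pass. The list was chosen with earlier results known, so these counts carry no test. The summed level of the 15 was 10676 to 11494 FPKM in WT against 2528 in Irx5KO replicate 1 and 4782 in Irx5KO replicate 2. Irx5KO replicate 1 was the lower of the knockout libraries for this sum and also for Atf4, Cebpb, Ddit3, Atf5 and Chac1. Of the other axis genes Trib3 and Nupr1 were lower in it too, and Cebpg was not. Its total of all FPKM values was also lower (451080 against 511333 in Irx5KO replicate 2). In WT the immediate-early sum was higher in replicate 1 (11494 against 10676), as were Ddit3, Atf5 and, by little, Cebpb. Atf4 (515 and 669 FPKM) and Chac1 (2.32 and 3.78 FPKM) were lower in WT replicate 1. Langerhans cell and macrophage markers (3 of 6 tested genes lower, 0 higher, against 9.22% and 26.9% of all rows) summed to 1012 and 548 FPKM in WT, against 247 and 335 in Irx5KO, with no marker at 0 in a whole group, whereas 5 T cell markers overlapped between genotypes. Of 3 tested melanocyte markers, Dct fell (Dct -1.001, limma adjusted p = 0.0350). The part of handling or of cell makeup in the ATF4 axis values was not tested. In whole epidermis, fewer cells of a type and less RNA per cell cannot be told apart.

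Serine and one-carbon enzymes did not move as a block. These enzymes make serine from a glycolytic intermediate and pass its one-carbon unit to folate, in the cytosol through SHMT1 and in mitochondria through SHMT2 and MTHFD2. Mthfd2, the mitochondrial folate enzyme that ATF4 is known to induce, was at 2.41 and 3.91 FPKM in WT, against 0.671 and 0.703 in Irx5KO, or 21.7% of the WT mean (-1.28, SE 0.201, limma adjusted p = 0.00220, and -1.54 relative to all rows). Like Chac1 it passed the filter through WT alone. Mthfd2 also overlaps Gm43890 on the same strand by 2799 bases, where reads could be split.

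Shmt1, the cytosolic serine hydroxymethyltransferase, doubled on the linear scale, from 16.2 and 15.7 FPKM in WT to 34.2 and 32.5 FPKM in Irx5KO, which is 208% of the WT mean (1.01, SE 0.163, limma adjusted p = 0.00241, and 0.76 relative to all rows). The replicates of each genotype nearly coincided. Shmt2, its mitochondrial counterpart, was at 28.9 and 21.5 FPKM in WT, against 36.2 and 36.7 in Irx5KO, higher in both knockout libraries but not past the threshold (Shmt2 0.53, 95% interval 0.10 to 0.96, limma adjusted p = 0.0563). Shmt2 passed in TPM (limma adjusted p = 0.00287), with robust empirical Bayes (0.0470) and without WT replicate 1 (0.00896). Shmt1 overlaps Smcr8 on the opposite strand by 184 bases.

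The 3 enzymes that build serine did not pass in the deposited values. Phgdh, the first step, was at 33.6 and 24.8 FPKM in WT, against 23.8 and 27.6 in Irx5KO (Phgdh -0.17, 95% interval -0.61 to 0.28). Psat1, the second, was at 31.4 and 30.4 FPKM and 36.1 and 31.2 FPKM (Psat1 0.12, 95% interval -0.27 to 0.50). Psph, the last, was at 10.1 and 12.9 FPKM and 9.38 and 7.79 FPKM, lower in both knockout libraries (Psph -0.38, 95% interval -0.81 to 0.05, limma adjusted p = 0.141). Psph did pass under median of ratios scaling (-0.66, limma adjusted p = 0.0445), quantile normalization (-0.64, limma adjusted p = 0.0467) and without WT replicate 1 (limma adjusted p = 0.0344). Asns, asparagine synthetase and a textbook ATF4 target, was at 18.3 and 18.7 FPKM in WT, against 13.1 and 13.5 in Irx5KO. The genotypes did not overlap for Asns, and the change of -0.45 (SE 0.162, 95% interval -0.81 to -0.08, limma adjusted p = 0.0577) fell short of the threshold in the deposited values but passed under median of ratios scaling (-0.73, limma adjusted p = 0.0136) and quantile normalization (-0.63, limma adjusted p = 0.0212).

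For proline synthesis, Aldh18a1 was at 2.97 and 2.04 FPKM in WT, against 2.31 and 1.95 in Irx5KO (Aldh18a1 -0.15, 95% interval -0.58 to 0.27), with overlapping groups. Pycr1, which completes proline, was below the filter at 0.0606 and 0.0608 FPKM in WT, against 0.115 and 0.0350 in Irx5KO and was not tested. Of the 8 tested enzymes 1 rose and 1 fell, against 26.9% and 9.22% of all rows. The 1 that fell, Mthfd2, had passed the filter through WT alone. The median change of the 8 was -0.16, against 0.26 for all rows.

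The cytosolic synthetase genes were all expressed and spanned a wide range of levels, which FPKM, being scaled by length, allows to be compared. Qars, for glutamine, was the highest of the 20 in every library, at 76.7 and 76.1 FPKM in WT, against 81.0 and 98.6 in Irx5KO. By the mean over all 4 libraries Kars, Nars, Rars and Hars came next, and their libraries lay between 29.7 and 47.3 FPKM and overlapped one another. Their order is not set beyond the spread, and in Irx5KO Gars (mean 35.1 FPKM) was above Rars (34.3) and Hars (32.3). Over all 4 libraries the lowest means belonged to Aars (6.68 to 9.43 FPKM) and Wars (6.10 to 9.04 FPKM), which also overlapped, although in WT alone Iars (mean 8.65 FPKM) was level with Aars (8.67). Farsa and Farsb, the paired subunits of the phenylalanine enzyme, were at 15.8 and 14.5 FPKM on average in WT and 21.5 and 15.1 FPKM in Irx5KO.

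**Figure D3:**
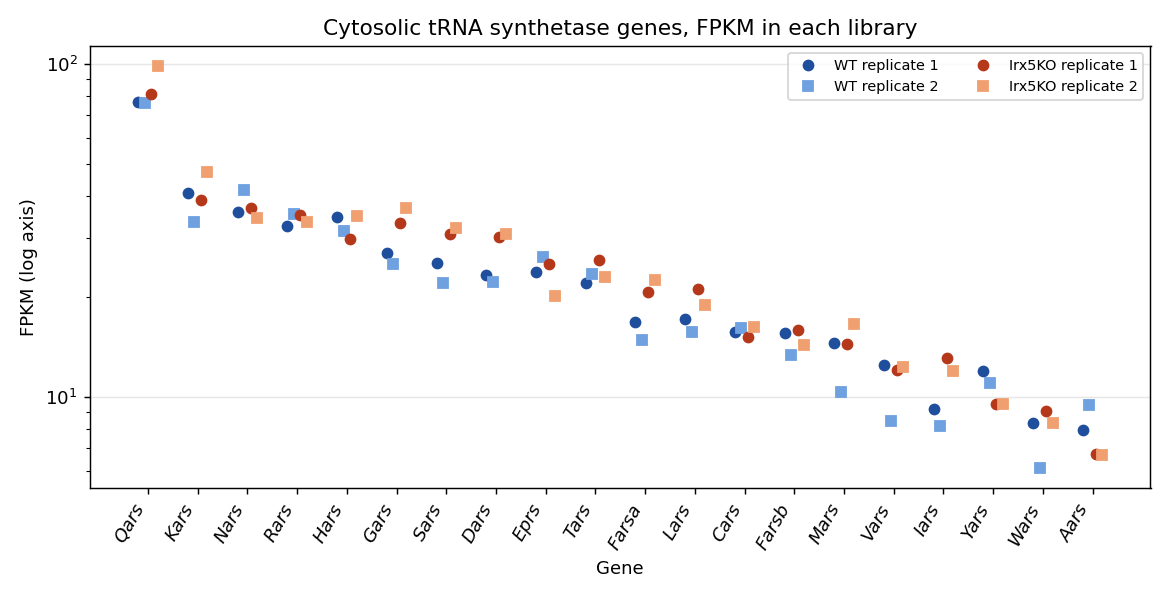
FPKM on a log axis of the 20 cytosolic synthetase genes in each library, ordered by mean level from Qars to Aars; circles are replicate 1 and squares replicate 2, WT in blue and Irx5KO in red and orange. For 11 of the 20 genes the genotypes overlap, and every gene stays between 6.10 and 98.6 FPKM.

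Only 1 of the 20 synthetases passed the test. Iars, for isoleucine, was at 9.16 and 8.14 FPKM in WT, against 13.1 and 12.0 in Irx5KO (0.49, SE 0.168, limma adjusted p = 0.0493, and 0.23 relative to all rows). That call sits at the threshold and was lost in 9 of 14 alternatives. These were median of ratios scaling (0.21, limma adjusted p = 0.357), quantile normalization (0.24, limma adjusted p = 0.280) and the replicate block (limma adjusted p = 0.0706). No filter on low values (limma adjusted p = 0.0869), no intensity trend (limma adjusted p = 0.0522) and the fold threshold also lost it. So did leaving out WT replicate 2 (change 0.41), Irx5KO replicate 1 (0.43) or Irx5KO replicate 2 (0.55). Without WT replicate 1, on the other hand, 7 synthetases were higher and 1 was lower, against 36.1% and 10.2% of all rows. The 20 changes ran from -0.32 to 0.49 with a median of 0.22, close to the 0.26 of all rows, and 14 were above 0 and 6 below. In 7 of the 20 both knockout libraries were above both WT libraries and in 2, Aars and Yars, both were below, against 54.3% and 18.0% of all rows tested.

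Dars, Farsa, Gars and Sars came closest to Iars without passing. Dars, for aspartate, was at 23.2 and 22.1 FPKM in WT, against 30.2 and 30.8 in Irx5KO (Dars 0.42, 95% interval 0.05 to 0.78, limma adjusted p = 0.0748). Gars, for glycine, was at 27.1 and 25.1 FPKM and 33.3 and 36.9 FPKM (Gars 0.41, 95% interval 0.03 to 0.79, limma adjusted p = 0.0847). Sars, for serine, was at 25.2 and 22.0 FPKM and 30.9 and 32.1 FPKM (Sars 0.40, 95% interval 0.02 to 0.79, limma adjusted p = 0.0907), and Farsa changed by a similar 0.42. Aars, for alanine, and Yars, for tyrosine, lay on the other side, Aars at 7.92 and 9.43 FPKM in WT, against 6.73 and 6.68 in Irx5KO (Aars -0.32, 95% interval -0.71 to 0.06). Yars was at 11.9 and 11.02 FPKM in WT, against 9.53 and 9.51 in Irx5KO (Yars -0.25, 95% interval -0.62 to 0.13).

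The direction of many synthetases rested on the scaling of the libraries. Under median of ratios 0 of the 20 were higher and 2 lower (10.5% and 13.9% of all rows), and in TPM 9 were higher and 0 lower (47.9% and 7.52% of all rows). The 8 synthetases known as members of the multisynthetase complex are Dars, Eprs, Iars, Kars, Lars, Mars, Qars and Rars. In the deposited values they had a median change of 0.24 and the other 12 of 0.08, against 0.26 for all rows. The 1 call, Iars, was 12.5% of the 8, while 26.9% of all rows were higher. The summed level of the 8 was 238 and 228 FPKM in WT, against 259 and 278 in Irx5KO. For the other 12 it was 233.5 and 223.0 FPKM in WT, against 245.5 and 251.0 in Irx5KO.

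**Figure D4:**
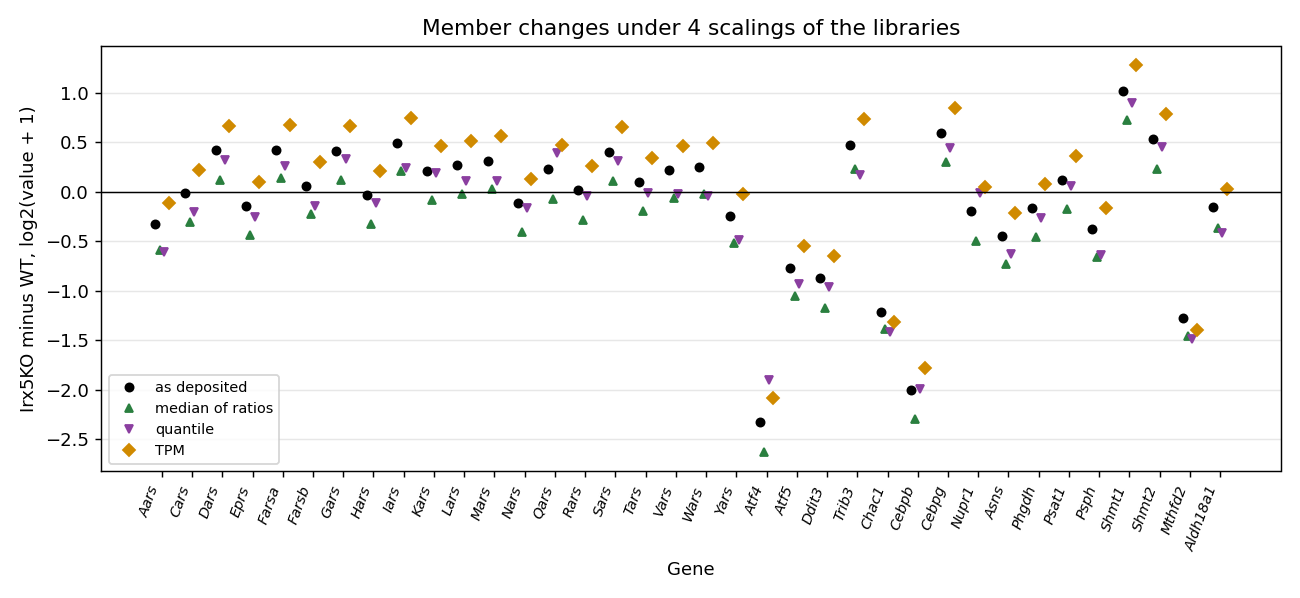
Log2 change (Irx5KO minus WT) of the 36 tested genes with the deposited values and under 3 other scalings of the libraries. Atf4, Cebpb, Chac1, Mthfd2, Ddit3 and Atf5 are below 0 and Shmt1 and Cebpg above 0 under all 4, while most synthetases sit on both sides of 0 or near it.

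The values were also set beside the promoter matches, as a description with no test of the difference. Of the 9 tested genes with a match, 1 rose (Iars) and 1 fell (Chac1), with changes from -1.21 to 0.49 and a median of -0.20, where 26.9% of all rows rose and 9.22% fell. Of the 20 tested genes whose window had none, 2 rose and 5 fell, with changes from -2.33 to 1.01 and a median of 0.09. Atf4, Cebpb and Mthfd2 were among the genes without the core in their window. Chac1, with a match, and Mthfd2, without one, passed the filter through WT alone. Their place in these counts thus already required a difference.

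Counts in the related lists below stand against 26.9% of all rows higher and 9.22% lower. Of 14 tested genes for eIF2alpha kinases, their cofactors, phosphatase subunits and eIF2B, 2 were higher and 2 lower. Ppp1r15a, the stress-induced phosphatase subunit that reverses eIF2alpha phosphorylation and is itself a target of the pathway, was at 401 and 359 FPKM in WT, against 41.5 and 84.9 in Irx5KO (-2.65, SE 0.306, limma adjusted p = 5.18e-04). Its constitutive counterpart Ppp1r15b was at 26.4 and 39.6 FPKM in WT, against 10.6 and 11.9 in Irx5KO (-1.45, limma adjusted p = 0.00162). The haem-regulated kinase gene Eif2ak1 rose from 8.29 and 8.56 FPKM to 16.1 and 17.4 FPKM (0.92, limma adjusted p = 0.00380). The amino acid-sensing kinase gene Eif2ak4, or GCN2, was at 2.89 and 3.68 FPKM in WT, against 5.18 and 4.005 in Irx5KO and did not pass.

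Other targets and effectors of the pathway went both ways. Of 9 tested further ATF4 targets 4 rose and 2 fell. Of the 4 that rose, Cth was above 1 FPKM only in Irx5KO, at 2.46 and 2.75 FPKM against 0.963 and 0.911 in WT. Its entry into the test thus already required a difference. The stress factor gene Atf3, which is also an immediate-early gene, fell from 2046 and 1949 FPKM to 63.3 and 200 FPKM (Atf3 -4.13, limma adjusted p = 3.75e-04), and the sestrin gene Sesn2, whose protein restrains mTORC1, fell from 15.7 and 21.4 FPKM to 5.63 and 7.91 FPKM (Sesn2 -1.33, limma adjusted p = 0.00248). Ddit4, another mTORC1 inhibitor and a glucocorticoid-induced gene, rose from 47.4 and 34.6 FPKM to 126 and 179 FPKM (Ddit4 1.86, limma adjusted p = 8.03e-04). Of 12 tested amino acid transporters 5 rose and 3 fell, against 26.9% and 9.22% of all rows. Slc43a1, a carrier of large neutral amino acids, rose from 2.62 and 2.13 FPKM to 13.3 and 18.3 FPKM (Slc43a1 2.30, limma adjusted p = 1.07e-04), with the glycine carrier Slc6a9 (Slc6a9 1.03, limma adjusted p = 0.00341) and the neutral amino acid carrier Slc1a4 (Slc1a4 0.99, limma adjusted p = 0.00411) also higher. The 3 that fell were the cationic amino acid carrier Slc7a1 (Slc7a1 -1.05, limma adjusted p = 0.00827) and the glutamine carriers Slc38a2 (Slc38a2 -1.04, limma adjusted p = 0.00990) and Slc38a1 (Slc38a1 -0.92, limma adjusted p = 0.00914), the last above 1 FPKM only in WT.

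Of 8 tested proline and glutamine enzymes 3 rose and 0 fell, and of 10 tested folate and glycine cleavage genes 2 rose and 0 fell, so 37.5% and 20.0% rose against 26.9% of all rows. The proline and glutamine genes were led by Glul, glutamine synthetase, from 75.4 and 47.0 FPKM to 234 and 271 FPKM (Glul 2.06, limma adjusted p = 6.16e-04), with the proline-degrading Prodh (Prodh 1.01, limma adjusted p = 0.0159) and Glud1 (Glud1 0.60, limma adjusted p = 0.0259). The folate genes that rose were the mitochondrial folate carrier Slc25a32 from 2.57 and 2.44 FPKM to 6.27 and 6.29 FPKM (Slc25a32 1.06, limma adjusted p = 0.00201) and the glycine decarboxylase Gldc (Gldc 0.96, limma adjusted p = 0.0144). Of 14 tested genes of amino acid sensing by mTORC1 3 rose and 2 fell, with Sesn1 at 2.18, the lysosomal arginine sensor Slc38a9 at 0.76 and the activating GTPase Rheb at -0.90 (limma adjusted p = 1.02e-04, 0.00896 and 0.0101). Under median of ratios scaling Prodh (limma adjusted p = 0.0601), Glud1 (0.229) and Gldc (0.0549) did not pass. Without Irx5KO replicate 1 Glud1 (limma adjusted p = 0.168), Slc38a9 (0.0846) and Rheb (0.106) did not, and without Irx5KO replicate 2 Glud1 did not (0.230). Under quantile normalization Gldc (limma adjusted p = 0.0576) and Slc38a9 (0.0606) did not, nor with no filter on low values did Gldc (0.0972), Prodh (0.106), Slc38a9 (0.0575) and Rheb (0.0587).

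Mitochondrial synthetases, encoded by separate nuclear genes, had 4 of 17 higher (23.5%) and 0 lower, with a median of 0.32, near the 26.9% and 0.26 of all rows. Pars2, for proline, rose from 0.721 and 0.223 FPKM to 2.48 and 2.02 FPKM (Pars2 1.16, limma adjusted p = 0.00331), and it was above 1 FPKM only in the Irx5KO libraries. Hars2, which shares 198 bases with Hars on the opposite strand, changed by 0.78 (Hars2 limma adjusted p = 0.0136) and Nars2 by 0.62 (Nars2 limma adjusted p = 0.0197). Under median of ratios scaling neither Hars2 (limma adjusted p = 0.0659) nor Nars2 (limma adjusted p = 0.0836) passed. In all, the Hars2 call was lost in 6 of 14 alternatives and the Nars2 call in 6 of 13. Of the 3 scaffold genes of the multisynthetase complex, Eef1e1 fell from 14.97 and 20.8 FPKM to 10.1 and 12.3 FPKM (Eef1e1 -0.62, limma adjusted p = 0.0413, and 0.139 in TPM), and Aimp1 and Aimp2 did not pass. The Eef1e1 call was lost in 6 of 14 alternatives.

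**Figure D5:**
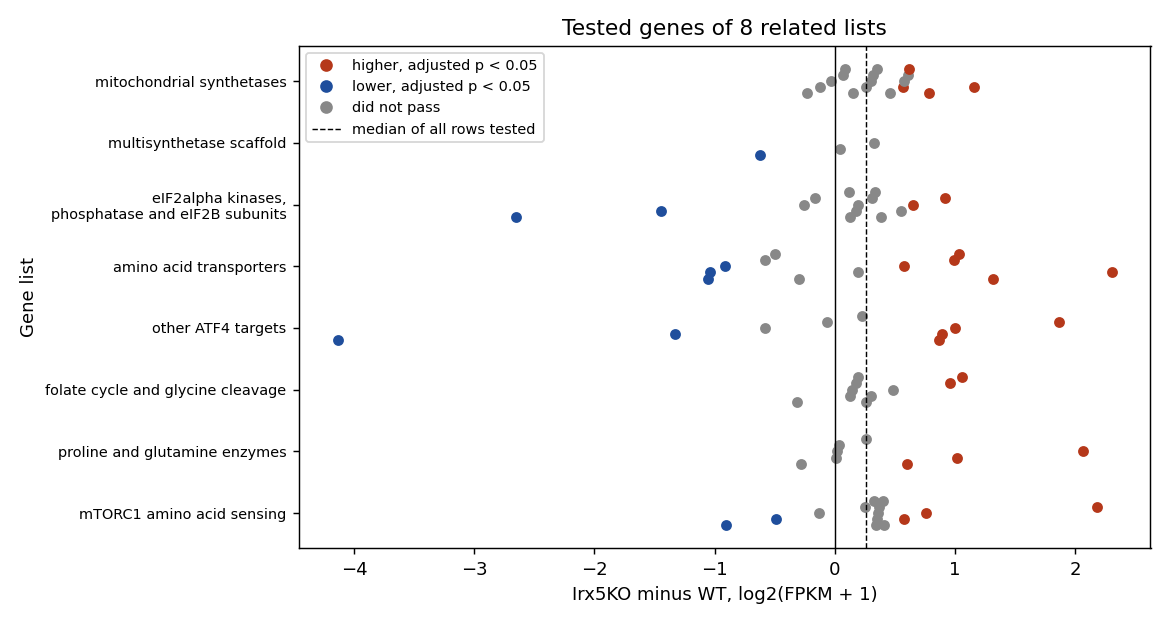
Log2 change (Irx5KO minus WT, on log2(FPKM + 1)) of each tested gene in 8 lists of related genes, with vertical position inside a list only to part the points. Blue points were lower and red points higher at an adjusted p below 0.05. The transporters and further ATF4 targets hold calls on both sides, from Atf3 at -4.13 to Slc43a1 at 2.30.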

How the data were processed

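Bulk RNA-seq of 4 libraries (2 WT, 2 Irx5KO; single-end reads, per the labels' protocols) was analysed from 1 table of FPKM values as the authors deposited it. The submitters' processing notes name Bowtie2, DESeq2 and mm10; how FPKM was made, with which annotation and strand setting, is not given in the sources used here; library kits of 2 names, SMARTER and TrueSeq, stand in the labels' protocols, which do not say which made which library. Depth was estimated from low values of genes with 1 transcript longer than 600 bases, taking 200 bases off each length. At the best scale, 68.4% to 70.5% of values up to 10 reads were whole within 0.1, where chance gives 20.0%, which puts the libraries at 52200000 to 60100000 reads; too few values were whole for a count test.

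Rows with at least 1 FPKM in at least 2 libraries (11643) were tested with limma 3.58.1 (R 4.3.3) on log2(FPKM + 1), 2-sided, with an intensity trend and Benjamini-Hochberg adjustment over all rows at 0.05. That scale understates changes of low genes. The procedure was checked on simulated data with few changed rows, as many up as down, and independent noise. That check does not cover a shift of most rows in 1 direction. Libraries correlated at r = 0.977 and 0.983 within and 0.899 to 0.932 between genotypes. Positions are from GENCODE M21 and promoters from RefSeq (GRCm38.p6). Alternatives were another pseudocount, other filters, scalings and variance models, a fold threshold, a replicate block and each library left out. The members, lists and tests were chosen with earlier results of these data known. Of each related list up to 3 called genes of smallest p are named by rule. Eif2ak4, Aimp1, Aimp2, Slc7a1, Slc38a1, Slc38a2, Cth, Krt14, Trp63, Dct and the members short of the threshold other than Asns were named after their values were seen. The sequence of 1 promoter site is not reported here.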

Additional observations from a re-analysis of the deposited data

How the results depend on the processing

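Of the 9 called genes, 5 (Atf4, Cebpb, Chac1, Mthfd2 and Shmt1) kept direction and call in every alternative that gave them a value; Chac1 and Mthfd2 had none with the stricter filter (mean of 5 FPKM) or without either WT library. The counts of calls moved as follows, and the cause was not tested. Under median of ratios scaling 1 member was higher and 10 lower, with 0 synthetases higher and 2 lower, 0 ATF4 axis genes higher, 3 enzymes lower, and 1226 rows higher and 1613 lower. Quantile normalization gave 1 and 10 members, 0 and 2 synthetases, 0 axis genes higher, 3 enzymes lower, and 1527 rows higher and 1304 lower. In TPM 13 members, 9 synthetases, 2 axis genes, 2 enzymes and 5577 rows were higher. A log2 change of at least 1 left 1 member, 0 synthetases and 0 axis genes higher, 3 axis genes lower, and 619 rows higher and 591 lower. No filter gave 0 synthetases higher and 1289 rows higher and 712 lower, and the stricter filter 0 enzymes lower and 1898 rows higher and 793 lower. Without the intensity trend 0 synthetases were higher, against 26.0% of all rows, and with robust empirical Bayes 2 enzymes were, against 28.6% of all rows. Same-numbered libraries did not deviate together (r = -0.07), but with 2 libraries per genotype this cannot tell whether the numbers pair samples. The replicate block gave 0 synthetases higher, with 3301 rows higher and 1166 lower. Leaving out 1 library at a time gave 1 to 10 members higher and 4 to 7 lower, 0 to 7 synthetases higher and 0 to 1 lower, 0 to 1 axis genes higher and 3 to 5 lower, 1 to 2 enzymes higher and 0 to 2 lower, and 1246 to 4127 rows higher and 713 to 1162 lower; the lone library of a group is then assumed to vary like the other group. Without Irx5KO replicate 1, 1246 rows were higher, and without replicate 2, 1357.

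Signs turned only for genes that did not pass. Under median of ratios the log2 change was -0.23 for Farsb, -0.0858 for Kars, -0.0234 for Lars, -0.0784 for Qars, -0.29 for Rars, -0.20 for Tars, -0.0611 for Vars, -0.0224 for Wars and -0.18 for Psat1. With quantile normalization it was -0.15 for Farsb, -0.0446 for Rars, -0.0154 for Tars, -0.0267 for Vars and -0.0406 for Wars. In TPM it was 0.22 for Cars, 0.0925 for Eprs, 0.21 for Hars, 0.13 for Nars, 0.0488 for Nupr1, 0.0740 for Phgdh and 0.0261 for Aldh18a1. Over the libraries left out it ran from -0.0653 to 0.0333 for Cars, -0.30 to 0.00587 for Eprs, -0.0429 to 0.16 for Farsb, -0.15 to 0.0758 for Hars, -0.0458 to 0.0683 for Rars, -0.0364 to 0.47 for Vars, -0.51 to 0.12 for Nupr1, -0.38 to 0.0470 for Phgdh and -0.35 to 0.0380 for Aldh18a1. With 2 libraries per genotype, sex and genotype inseparable, and FPKM in place of counts, a change that did not pass is not shown to be absent.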
